A study of Drosophila melanogaster with 6 samples.

Results

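The genes of the proteasome subunits were followed in sorted enteroblasts (EBs), the differentiating daughters of the *Drosophila* intestinal stem cell. The members are all genes whose symbol starts with Prosalpha or Prosbeta, or with Rpn or Rpt followed by a digit, which gave 47 genes of the 17321 in the table, each with a single transcript. They comprise 32 canonical subunits (14 of the core and 18 of the regulatory particle) and 15 paralogs, recognised by a T or R in the symbol. EBs from *Sox21a* midguts were compared with EBs from control midguts, with 3 libraries each.

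The *Sox21a* flies were homozygous for a CRISPR allele, a small deletion in the HMG domain that shifts the reading frame of this SOX transcription factor. The control flies are labelled wild-type, whereas the methods give them as *Sox21a*/+, so that the difference compares homozygotes either with wild types or with heterozygotes. Both groups were adult females kept for 16 to 18 days at 25 °C and carried Su(H)GBE-Gal4, UAS-CD8::GFP, in which a Notch-responsive element drives the GFP by which the cells were sorted. The libraries are therefore of cells with Notch reporter activity, and each pooled the guts of many flies. Midguts were split into anterior and posterior parts, and the methods do not say which part was sequenced. The paper focused on the anterior midgut after describing where the tumours form. The input was 2 ng of total RNA per library, which went through a linear amplification that yields antisense RNA before it was sequenced in read pairs.

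The proteasome degrades proteins that carry ubiquitin chains. Its core is a barrel of stacked rings: the outer rings of alpha subunits form the gate, and the inner rings of beta subunits hold the proteolytic sites. The regulatory particle caps the barrel. Its base has a ring of ATPases (Rpt) that unfold the substrate, together with scaffold and ubiquitin-binding subunits (Rpn), and its lid removes the ubiquitin chain. In many organisms the subunit genes are regulated as a set, and in *Drosophila* several subunits have paralogs known from the testis.

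The table holds normalized reads per transcript, and each library summed to between 37286049 and 45955837 of its smallest increments. The frameshift leaves the *Sox21a* transcript in place: it had 14474, 14697 and 19025 normalized reads in *Sox21a* EBs and 14123, 17337 and 16781 in control EBs, so its level does not check the labels. All 5 progenitor markers were detected in every library, and 3 of them were called lower in *Sox21a* EBs (esg, E(spl)m3-HLH and E(spl)malpha-BFM). The summed level of the 5 enterocyte markers was 17927 to 21487 in *Sox21a* EBs and 43966 to 69869 in control EBs, with 4 of 5 called lower. The 4 enteroendocrine markers summed to 857 to 2707 in *Sox21a* EBs and 513 to 879 in control EBs, with Tk called higher and pros lower. Of the 3 tracheal markers Gasp alone was called, at 287 to 339 in *Sox21a* EBs and 2.07 to 4.14 in control EBs. Visceral muscle markers summed to at most 61.0 and haemocyte markers to at most 21.2 in any library. The part of these differences in the results below was not tested. Control library 1 stood apart from the other control libraries, at a median absolute log2 difference per transcript of 0.371 and 0.357 from them, against 0.214 between those libraries. By the same measure *Sox21a* library 3 was at 0.275 and 0.232 from *Sox21a* libraries 1 and 2, against 0.155 between these.

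Of the 32 canonical subunit genes, 27 were higher in *Sox21a* EBs and none was lower, and the 5 others also had higher means there. Their median log2 fold change was 0.65, or 1.57-fold, and the range was 0.35 to 1.04. In 31 of the 32 genes every *Sox21a* library was above every control library, the exception being Rpn6. Calls are from limma on log2(value + 1), with Benjamini-Hochberg adjusted p under 0.05 over the 11400 transcripts whose mean over the libraries reached 10. Over all 9571 genes tested, 24.2% were called higher and 10.2% lower, and 35.8% had all 3 *Sox21a* libraries above all 3 control libraries. Among genes with a mean of at least 1000, the range in which all 32 canonical subunits lie, 25.0% were called higher. In bulk samples such as these, fewer cells of a type and less RNA per cell cannot be told apart.

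**Figure D1:**
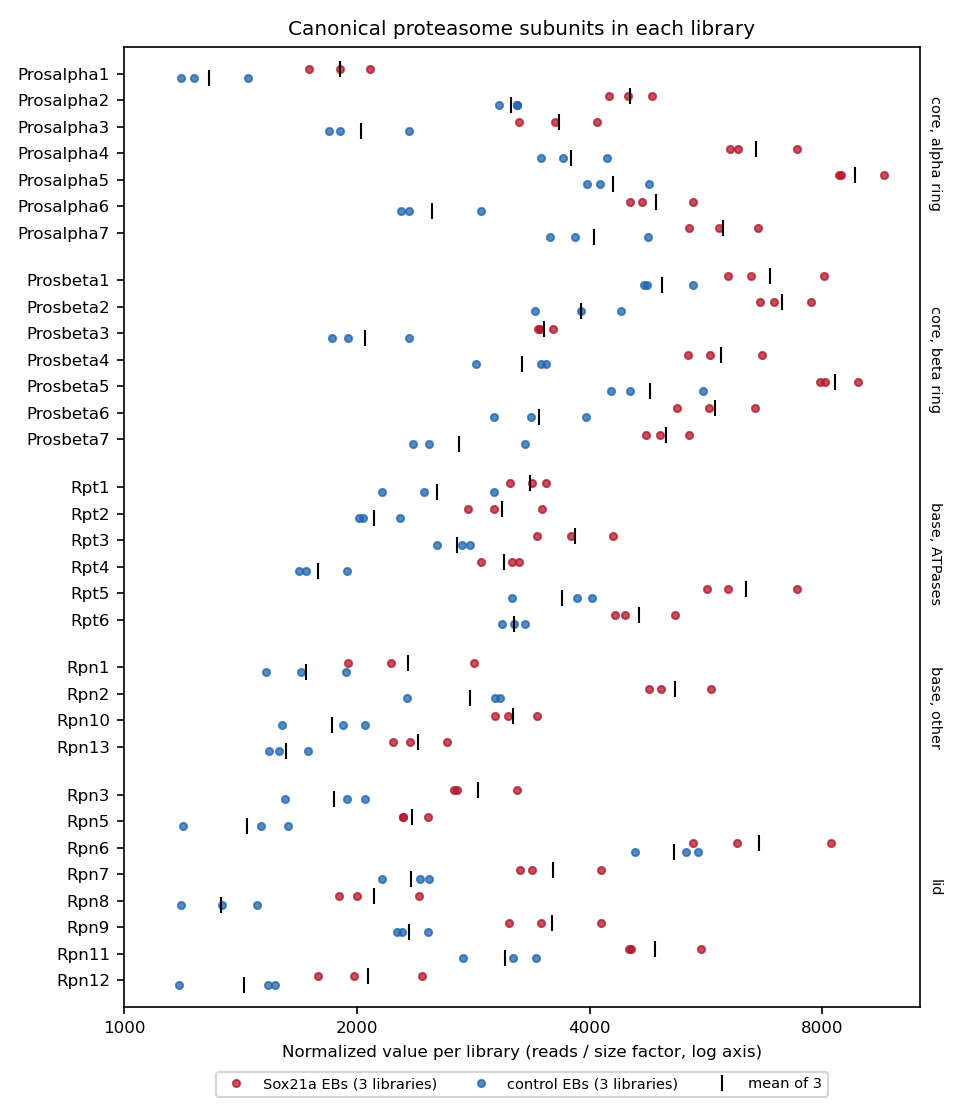
Normalized reads of the 32 canonical subunits in each library (log axis), with 3 *Sox21a* libraries in red and 3 control libraries in blue, and black bars for the group means. The red points are to the right of the blue points in every row but that of Rpn6, in which a *Sox21a* library at 5447 lies below a control library at 5516.

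The size of these changes depends on the scaling of the libraries. The median of all tested genes was itself shifted by 0.24 on the log2 scale. Scaling factors from the median ratio of transcripts whose mean reached 100 brought this median to 0.04, and the median of the canonical subunits to 0.45 (1.37-fold). All 32 values stayed above 0 and 29 of the 32 genes still did not overlap between groups, while 19 of the 32 passed the test and none was lower. After this rescaling 17.1% of all genes were called higher and 15.2% lower, 26.8% had all *Sox21a* libraries above all control libraries, and 17.3% of genes with a mean of at least 1000 were called higher.

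The changes of the 32 subunits lay close together. The interquartile range of the 32 log2 fold changes was 0.26 and their SD 0.18, while genes with a mean of at least 1000 had an interquartile range of 0.74 and an SD of 0.85, and all tested genes 0.81 and 1.05. This is a description, since the subunits share all 6 libraries. The genes are spread over the genome, with 4 on chromosome arm 2L, 10 on 2R, 5 on 3L, 9 on 3R and 4 on X.

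**Figure D2:**
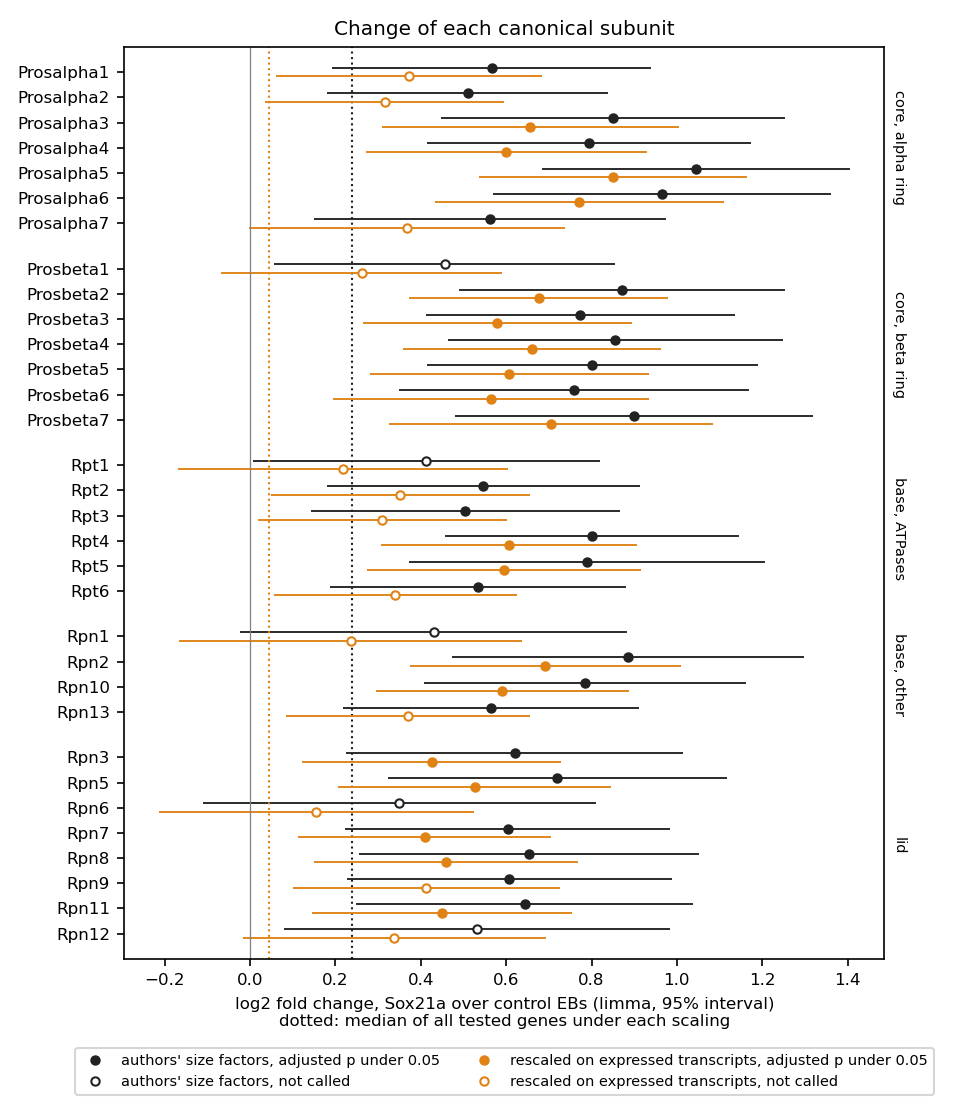
The log2 fold change of each canonical subunit, *Sox21a* over control EBs, with its 95% interval from limma, as deposited (black) and after rescaling (orange). Filled points passed the adjusted p, and dotted lines mark the median of all tested genes, 0.24 as deposited and 0.04 after rescaling. All 32 points are above 0 under both scalings, and 27 and 19 of them are filled.

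The share of a library's summed values is unaffected by the size factors, although dividing by that sum is itself a scaling. The 32 canonical subunits made up 0.343, 0.337 and 0.356% of the summed values in *Sox21a* libraries, against 0.227, 0.193 and 0.221% in control libraries. The means were 0.346 ± 0.0098% in *Sox21a* EBs and 0.214 ± 0.018% in control EBs (SD, n = 3 each), a ratio of 1.62, and the groups did not overlap. The share of the 14 core genes in *Sox21a* EBs was 1.71 times that in control EBs, and the share of the 18 regulatory genes 1.52 times. The summed core over the summed regulatory particle was 1.23, 1.21 and 1.17 in *Sox21a* libraries and 0.990, 1.10 and 1.13 in control libraries, so the groups did not overlap, but the lowest of the *Sox21a* libraries and the highest of the control libraries were close. Control library 1, which stood apart, was the lowest, and this difference was not tested.

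**Figure D3:**
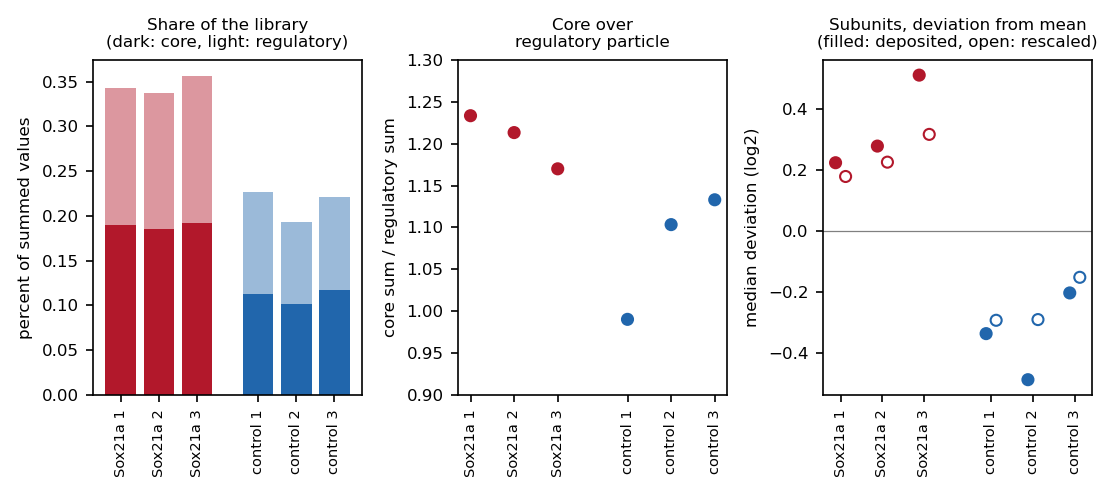
Left, the share of each library's summed values in the core (dark) and regulatory (light) genes, with *Sox21a* libraries in red and control libraries in blue. Middle, the summed core over the summed regulatory particle. Right, the median deviation of the 32 subunits from their mean over the 6 libraries (log2), as deposited (filled) and rescaled (open), which is above 0 in the 3 *Sox21a* libraries and below 0 in the 3 control libraries.

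The libraries of a group differed in the level of the whole set. The median deviation of the 32 subunits from their mean over all libraries was 0.22, 0.28 and 0.51 on the log2 scale in *Sox21a* EBs and −0.34, −0.49 and −0.20 in control EBs. After rescaling it was 0.18, 0.22 and 0.32 in *Sox21a* EBs and −0.29, −0.29 and −0.15 in control EBs. *Sox21a* library 3 was the highest and control library 3 was closest to the *Sox21a* libraries under both scalings.

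All 7 alpha ring genes were higher in *Sox21a* EBs, with a median log2 fold change of 0.79. Prosalpha5, a structural subunit of the ring, showed the largest change of the canonical genes. It had 8415, 8450 and 9619 normalized reads in *Sox21a* EBs, against 3971, 4119 and 4765 in control EBs. The lowest *Sox21a* library was well above the highest control library, and the log2 fold change was 1.04 ± 0.15 (SE; limma adjusted p = 0.0025). Prosalpha6 had 4512, 4672 and 5445 in *Sox21a* EBs and 2282, 2332 and 2895 in control EBs, again without overlap (log2 fold change 0.97 ± 0.17, limma adjusted p = 0.0050). After rescaling these genes kept values of 0.85 and 0.77, and both were still called.

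Prosalpha2 had the smallest change of the ring, with 4233, 4480 and 4812 normalized reads in *Sox21a* EBs and 3217, 3052 and 3221 in control EBs. The groups did not overlap and the log2 fold change was 0.51 ± 0.14 (limma adjusted p = 0.029). Prosalpha7 had 5368, 5872 and 6597 in *Sox21a* EBs and 3549, 3823 and 4764 in control EBs, with a log2 fold change of 0.56 ± 0.18 (limma adjusted p = 0.044). Neither call held after rescaling, where the adjusted p was 0.080 for Prosalpha2 and 0.11 for Prosalpha7, and neither did that of Prosalpha1 (0.069). Each of Prosalpha2 and Prosalpha7 was called in 1 of the 6 fits that left out a library, and Prosalpha1 in 2, with adjusted p up to 0.11, 0.12 and 0.11 for Prosalpha2, Prosalpha7 and Prosalpha1.

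Of the 7 beta ring genes, 6 were higher in *Sox21a* EBs, with a median of 0.80 over the ring, and the same 6 passed after rescaling. The proteolytic sites lie in Prosbeta1, Prosbeta2 and Prosbeta5, whose homologues cut after acidic, basic and hydrophobic residues. Prosbeta5 had 7933, 8073 and 8890 normalized reads in *Sox21a* EBs, against 4507, 4258 and 5597 in control EBs, without overlap (log2 fold change 0.80 ± 0.17, limma adjusted p = 0.010). Prosbeta2, a gene of 3 exons at 3L:14999951-15001319 on the plus strand in Release 6, had 6650, 6921 and 7730 in *Sox21a* EBs and 3896, 3397 and 4393 in control EBs (0.87 ± 0.16, limma adjusted p = 0.0067). Prosbeta1 had 6039, 6460 and 8037 in *Sox21a* EBs and 4743, 4701 and 5448 in control EBs. These groups did not overlap either, but the log2 fold change of 0.46 ± 0.17 missed the threshold (limma adjusted p = 0.076).

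Ratios between the proteolytic subunits were taken within each library, so that scaling cancels. Prosbeta5 over Prosbeta1 was 1.31, 1.25 and 1.11 in *Sox21a* libraries and 0.950, 0.906 and 1.03 in control libraries, with means of 1.22 ± 0.11 in *Sox21a* EBs and 0.961 ± 0.062 in control EBs (SD, n = 3 each). Prosbeta2 over Prosbeta1 was 1.10, 1.07 and 0.962 in *Sox21a* libraries and 0.822, 0.723 and 0.806 in control libraries, also without overlap. Prosbeta5 over Prosbeta2 overlapped, at 1.15 to 1.19 in *Sox21a* libraries and 1.16 to 1.27 in control libraries. In a two-sided exact permutation test the first and second ratios reached p = 0.1, the smallest that 3 against 3 libraries allow, and 0.15 after adjustment over the 3 ratios, and the third gave p = 0.3. The exact test cannot go below 0.1 with 3 against 3 libraries, so it cannot take these ratios past 0.05.

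The non-catalytic beta subunits ranged in log2 fold change between 0.76 in Prosbeta6 and 0.90 in Prosbeta7. Prosbeta7 had 4726, 4936 and 5381 normalized reads in *Sox21a* EBs, against 2365, 2480 and 3295 in control EBs, without overlap (0.90 ± 0.18, limma adjusted p = 0.0087). Its control library 3 was the highest of the control libraries, as in all 3 proteolytic subunits.

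In the base, 5 of the 6 ATPase genes were higher in *Sox21a* EBs, with a median log2 fold change of 0.54, the lowest of the subunit classes. After rescaling only Rpt4 and Rpt5 of the 6 passed the test. Rpt4 had 2896, 3175 and 3236 normalized reads in *Sox21a* EBs and 1719, 1682 and 1943 in control EBs (log2 fold change 0.80 ± 0.15, limma adjusted p = 0.0062). Rpt5 had 5672, 6041 and 7419 in *Sox21a* EBs and 3849, 3175 and 4024 in control EBs (0.79 ± 0.18, limma adjusted p = 0.014). Neither gene overlapped between the groups. Rpt1 had 3154, 3369 and 3515 in *Sox21a* EBs and 2154, 2443 and 3009 in control EBs, and its log2 fold change of 0.41 ± 0.17 was not called (limma adjusted p = 0.10). Rpt2, Rpt3 and Rpt6 had log2 fold changes of 0.50 to 0.55, and each was called in 1 of the 6 fits without a library.

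Of the 4 other base genes 3 were higher. Rpn2, a large scaffold of the particle, had 4767, 4950 and 5748 normalized reads in *Sox21a* EBs, against 3063, 2323 and 3017 in control EBs. The groups did not overlap, and the log2 fold change of 0.89 ± 0.18 was the largest of the canonical regulatory genes (limma adjusted p = 0.0087). Rpn1, the related scaffold that in yeast also binds shuttle factors, had 1945, 2213 and 2831 in *Sox21a* EBs and 1523, 1691 and 1934 in control EBs. Its groups were separated by a narrow gap, and the value of 0.43 ± 0.19 was not called (limma adjusted p = 0.12). The ubiquitin receptors Rpn10 and Rpn13 were both higher, with log2 fold changes of 0.79 (adjusted p = 0.0097) and 0.56 (adjusted p = 0.024) in limma. Rpn13 missed the threshold after rescaling (adjusted p = 0.054).

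In the lid 6 of 8 genes were higher, with a median log2 fold change of 0.61, and 5 passed after rescaling. Rpn11, the deubiquitinase that removes the chain from the substrate, had a log2 fold change of 0.64 (limma adjusted p = 0.025) and its partner Rpn8 one of 0.65 (limma adjusted p = 0.024). Rpn6, which clamps the lid to the core in yeast, had 5447, 6211 and 8215 normalized reads in *Sox21a* EBs and 5516, 4576 and 5321 in control EBs. It was the only canonical gene whose groups overlapped, its *Sox21a* libraries spread widely, and its log2 fold change of 0.35 ± 0.20 was not called (limma adjusted p = 0.20). Rpn12 had 1984, 1778 and 2427 in *Sox21a* EBs and 1567, 1177 and 1534 in control EBs, at 0.53 ± 0.19 with an adjusted p of 0.069 in limma. With the replicate number as a block, Rpn12 passed (limma adjusted p = 0.042), which brought the higher members, with the paralog below, to 29. With the block after rescaling, Rpn3, Rpn7 and Rpn8 were no longer called (limma adjusted p of 0.051, 0.058 and 0.060), which left 17 members higher.

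The count of calls was lower in each fit that left out a library, and such a fit has fewer libraries to test with. Without *Sox21a* library 1, 2 or 3, the number of members called higher was 16, 14 or 15, and without control library 1, 2 or 3 it was 27, 16 or 20, against 28 with all libraries. The share of all genes called higher was 15.5, 14.8 and 16.1% without each *Sox21a* library and 31.5, 15.9 and 19.3% without each control library, against 24.2% with all. Leaving out control library 1 thus raised the share of all genes while the count of members stayed close. The members called in all 6 of these fits were 14: Prosalpha3, Prosalpha4, Prosalpha5, Prosalpha6, Prosbeta2, Prosbeta3, Prosbeta4, Prosbeta5, Prosbeta7, Rpt4, Rpt5, Rpn2, Rpn10 and the paralog Rpt3R. The share of all genes called in all 6 fits was not computed, so this count has no background beside it. No member reversed its direction in any of these fits.

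Levels per length were compared because the genes differ in transcript length, between 774 and 3325 bases. Per kilobase, the canonical subunits ranged between 766 normalized reads (Rpn1) and 9986 (Prosalpha5) in *Sox21a* EBs, with a median of 3525, and between 564 (Rpn1) and 5826 (Prosbeta1) in control EBs, with a median of 2157. The core was above the regulatory particle in both groups, with medians of 5840 and 2163 normalized reads per kilobase in *Sox21a* EBs and 3542 and 1418 in control EBs. The order of the 32 levels was nearly the same in both groups (Spearman's rho 0.98 across genes, which are not independent). The log2 fold change had only a weak relation to transcript length (rho −0.21) or to the level per kilobase (rho 0.25). Amplification and read counting can weight transcripts unequally, so these are levels in these libraries.

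Exons of 13 canonical genes overlap those of a gene on the other strand, and strand was not stated for the counting, so reads of such partners cannot be told apart. The 19 genes without an overlap included 15 of the 27 called, with a median log2 fold change of 0.65, and the 13 with one had 0.61. The mean of the partner was largest relative to the subunit at Rpt2, whose partner CG31142 was at 103% of it and higher in *Sox21a* EBs (log2 fold change 1.06, limma adjusted p = 0.0032), and at Prosbeta3, whose partner CG11980 was at 81.8% (0.64, limma adjusted p = 0.041).

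The paralogs were nearly silent in these cells, with the exception of Rpt3R. The other 14 had means between 2.06 and 5.58 normalized reads, and none passed the filter of a mean of at least 10. The smallest value in each library is 2 increments, and values up to 5 increments, or 4.92 to 5.58 normalized reads, were taken as not above the detection limit. Above it were Prosbeta2R2, with 9 and 15 in *Sox21a* libraries 1 and 2 but 2.95 in library 3, against 2.07 to 2.23 in control libraries, Rpt6R, with 7, 7 and 1.97 in *Sox21a* libraries and 2.07 to 3.10 in control libraries, and Rpn13R, with 5, 7 and 1.97 in *Sox21a* libraries and 3.10, 12.3 and 4.14 in control libraries. The other 11 paralogs, including all those with a T in the symbol, did not exceed 3 normalized reads in any library.

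Rpt3R, a paralog of the ATPase gene Rpt3 at 3R:9754735-9756510 on the minus strand, with 2 exons, had the largest log2 fold change of all members. It had 57, 97 and 120 normalized reads in *Sox21a* EBs, against 14.5, 26.8 and 35.2 in control EBs. The groups did not overlap but each spread more than 2-fold, and the log2 fold change was 1.82, or 3.54-fold (limma adjusted p = 0.011, and still called after rescaling, at 1.63). Rpt3R was a small part of the ATPase transcripts: its reads were 1.67, 2.56 and 2.80% of those of Rpt3 in *Sox21a* libraries and 0.530, 1.05 and 1.26% in control libraries. Its exons overlap those of Alg12 on the other strand, which had a mean of 679 against 58.4 for Rpt3R and was not called (log2 fold change 0.41, limma adjusted p = 0.36), and a share of reads assigned from Rpt3 or Alg12 was not tested. The testis markers can, comr and aly were at the smallest value in all 6 libraries, and sa and nht were at most 6.89 and 9.84 in any library. The testis marker mia was detected in every library and called lower, with 33, 38 and 38.4 in *Sox21a* EBs and 76.5, 125 and 199 in control EBs.

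The genes that act with the proteasome were given by a list of 20, all of which were tested. In *Sox21a* EBs 4 were higher and 2 lower, with a median log2 fold change of 0.21, which is near the 0.24 of all genes. After rescaling 3 were higher and 5 lower, with a median of 0.01. The 4 genes called higher are 20.0% of the list, against 24.2% of all genes. Of all genes 10.2% were called lower as deposited, and after rescaling 17.1% were called higher and 15.2% lower.

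**Figure D4:**
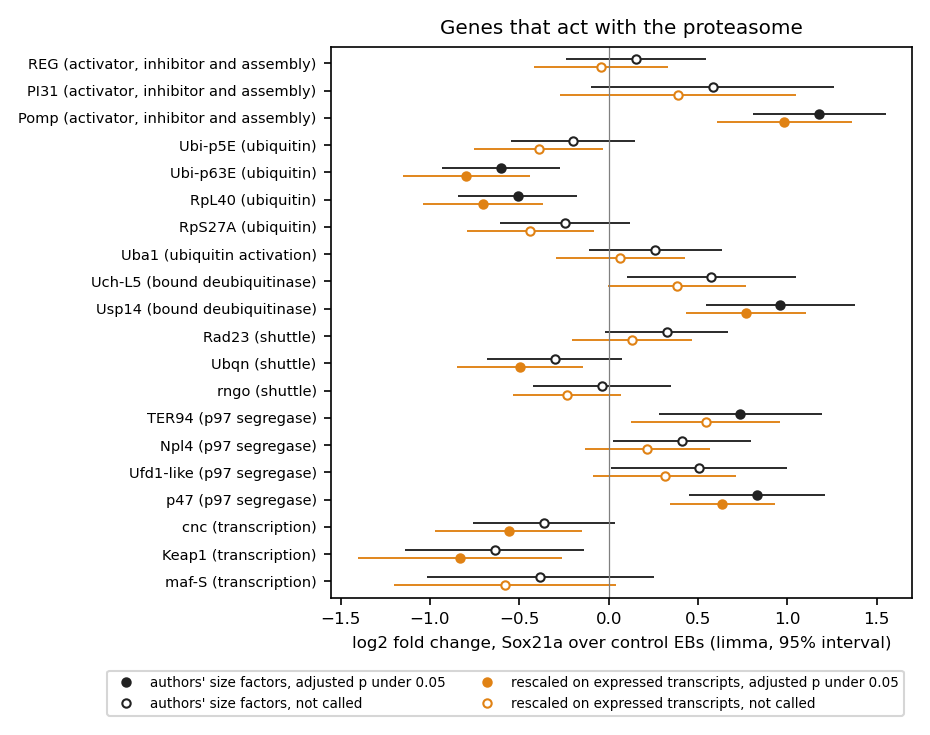
The log2 fold change of 20 genes that act with the proteasome, *Sox21a* over control EBs, with 95% intervals from limma, as deposited (black) and after rescaling (orange). Filled points passed the adjusted p. Pomp, Usp14, TER94 and p47 are filled above 0 as deposited, and the polyubiquitin and ribosomal fusion genes lie below 0.

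Pomp, the chaperone that assembles the core, had 5495, 5915 and 6043 normalized reads in *Sox21a* EBs, against 2218, 2739 and 2792 in control EBs. The groups were far apart, and the log2 fold change of 1.18 ± 0.16 was above that of every canonical subunit (limma adjusted p = 0.0017). The activator REG and PI31, a regulator of proteasome activity, were not called, at 0.15 and 0.58, and their groups overlapped.

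Of the proteasome-bound deubiquitinases, Usp14 (CG5384 in the table) had 3515, 3406 and 4048 in *Sox21a* EBs and 1854, 1600 and 2213 in control EBs, without overlap (log2 fold change 0.96 ± 0.18, limma adjusted p = 0.0063). Uch-L5 was at 0.57 and was not called (limma adjusted p = 0.063, and 0.045 with the replicate block). TER94, the p97 ATPase that extracts ubiquitinated proteins from complexes, had 7929, 9054 and 9935 in *Sox21a* EBs and 4585, 5033 and 6684 in control EBs (0.74 ± 0.19, limma adjusted p = 0.025), and missed the threshold after rescaling (adjusted p = 0.054, and 0.044 with the replicate block). Its cofactor p47 had 1916, 2007 and 2319 in *Sox21a* EBs and 1233, 1026 and 1253 in control EBs (0.83 ± 0.16, limma adjusted p = 0.0082) and was called under both scalings.

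The genes of ubiquitin itself lay on the other side. The polyubiquitin gene Ubi-p63E had 14836, 13806 and 13045 in *Sox21a* EBs and 21371, 21663 and 20251 in control EBs, and fell by 0.60 on the log2 scale (limma adjusted p = 0.016). RpL40, which encodes ubiquitin fused to a ribosomal protein, had 47848, 53336 and 52457 in *Sox21a* EBs and 69092, 76896 and 72641 in control EBs, and fell by 0.51 (limma adjusted p = 0.031). The groups did not overlap in either gene. Without single libraries, the adjusted p of Ubi-p63E reached 0.075 and that of RpL40 0.11. The other ubiquitin genes, Ubi-p5E and RpS27A, had log2 fold changes of −0.20 and −0.24 and were not called.

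The ubiquitin-activating enzyme Uba1 (log2 fold change 0.26) and the shuttle factors Rad23, Ubqn and rngo, which carry ubiquitinated proteins to the proteasome, were not called. The gene cnc encodes a transcription factor, CncC, that can induce proteasome genes in *Drosophila*, and Keap1 and maf-S its inhibitor and its partner. None of these 3 was called as deposited, at log2 fold changes of −0.36, −0.64 and −0.38 for cnc, Keap1 and maf-S. The values of cnc are those of transcript RA, its transcript of highest mean, and whether this transcript encodes CncC was not checked. After rescaling cnc (−0.56, adjusted p = 0.047), Keap1 (−0.83, adjusted p = 0.038) and Ubqn (−0.50, adjusted p = 0.041) were called lower in limma. With the replicate block as well, cnc and Keap1 missed the threshold (adjusted p = 0.051 and 0.052), and Ubqn kept its call (adjusted p = 0.045).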

How the data were processed

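Members and lists were chosen with earlier results of these data known. The authors mapped read pairs to Release 6 with Bowtie2, counted pairs in exons and divided them by size factors. The deposited signal is these normalized reads per transcript. Every value is a whole multiple (within 0.0001) of a step per library and none is under 2 steps, an adjustment that is not described. Because of it, count models were not used. The authors' table of group means, variances, fold changes and p-values was not used, and 0 columns were left out.

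limma 3.58.1 (R 4.3.3; lmFit and eBayes, no trend) was run on log2(value + 1) of transcripts whose mean reached 10, a scale that understates changes of low genes. The fit was checked on simulated data with known changes, as many up as down. That simulation held no shift of all genes, so it does not check the scaling. Each gene was represented by its transcript of highest mean. Deviations of same-numbered libraries were weakly correlated (0.171, 0.129 and 0.124), against −0.184 to 0.051 for libraries of different number. The replicate number was therefore tried as a block. Amplified reads are not independent molecules, and detection limits cover counting error only. Replicates are the study's biological replicates.

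Every library's value is given for the proteolytic subunits, the 3 largest and 3 smallest log2 fold changes in the canonical core and regulatory particle, paralogs that passed the filter, and associated genes past the threshold. Library values of Rpn12 and of paralogs under the filter, and associated genes not called, were added after their values were seen. Gene positions and overlaps are from the BDGP6 annotation, in which all 47 genes matched. Ratios were tested in scipy 1.17.1, and figures drawn with matplotlib 3.10.9.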

Additional observations from a re-analysis of the deposited data

How the results depend on the processing

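No direction reversed among 624 recomputed values of the 33 tested members and of the 6 associated genes called, and 529 kept their side of the threshold. The members called higher were 28 with all libraries, when 24.2% of all genes were called higher. They were 20 when rescaled (17.1% of all genes) and 11 at an adjusted p under 0.01 (11.6%). With the replicate block and rescaling together they were 17 (17.2%). Under the other pseudocounts, filters, transcript choices, trend and replicate block (29) they were 27 to 31. Of all genes, 12.9% were called higher without a filter and 23.6 to 27.6% under the rest of these. Leaving out a library gave 14 to 27, with 14.8 to 31.5% of all genes called higher. When rescaled as well it gave 5 to 21, with 10.2 to 22.3% of all genes, a setting chosen after seeing the data. The lowest count, 5, was without *Sox21a* library 2, when 10.2% of all genes were called higher. No member was called lower in any setting. By unadjusted p under 0.05 in limma, 31 were higher and 0 lower, and 32.6% of all genes were higher. The median log2 fold change of the canonical subunits was 0.45 when rescaled, with or without the block, 0.55 to 0.71 when a library was left out, and 0.40 to 0.49 when a library was left out after rescaling. The 5 canonical subunits not called had changes of 1.27 to 1.45-fold.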
